A study of Homo sapiens and Mus musculus with 41 samples.

Results

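The genes described here are the collagen genes, taken as every row whose symbol reads COL, a number, A and a number, in any case. Each of the 4 tables held 43 of them, which made 172 of 93441 rows over the whole series. By class, 11 were fibrillar collagens, 6 were the type IV collagens of basement membranes and 26 were other collagens. The human and mouse tables shared 42 symbols, with COL21A1 read only in the human tables and Col6a4 only in the mouse table.

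The study measured polyadenylated RNA in 41 libraries from 4 cancer models grown in culture. HCC1954 is a human breast carcinoma line with raised HER2, MDA-MB-231 is a human breast carcinoma line without oestrogen receptor, progesterone receptor or HER2, PC9 is a human lung adenocarcinoma line with raised EGFR, and LLC is the mouse Lewis lung carcinoma line from C57/B6. Each model had a leptomeningeal derivative (Lep), a brain metastatic derivative (BrM), an intermediate derivative (Int) and its parental line (Par). The libraries for Lep, BrM, Int and Par numbered 3, 2, 2 and 3 in HCC1954, 2, 3, 2 and 3 in both PC9 and MDA-MB-231, and 3, 3, 2 and 3 in LLC. All parental lines stably expressed GFP, so every group carried it. Per the labels' growth text, cells rinsed out of the leptomeningeal space of mice were cultured until all carried GFP, and were passaged again ahead of the RNA extraction. That text does not say which derivatives it covers, and the labels used here do not describe how BrM cells were obtained. Par replicates were technical, Int and Lep replicates were a mix of biological and technical ones, and BrM replicates are not described, so p-values measure only the spread between these libraries.

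Collagens are triple-helical proteins of the extracellular matrix. Fibrillar collagens build the banded fibrils of connective tissue, type IV collagens form the sheet-like network of basement membranes, and the remaining types decorate fibrils, form beaded filaments or anchoring fibrils, or span the cell membrane. In the leptomeninges and around brain vessels, basement membranes and a thin fibrillar matrix are made mainly by fibroblast-like and vascular cells, while carcinoma cells can make collagens of their own.

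Values are the authors' normalized counts, which compare libraries within a table but not between tables. Depth was 25330801 to 67367833 reads per library in HCC1954, 23508951 to 110830546 in MDA-MB-231, 16792027 to 38432963 in PC9 and 18029707 to 67939274 in LLC. Depth differed by stage. Int had at least 67210373 reads in HCC1954, 96283309 in MDA-MB-231 and 67198962 in LLC, where other stages had at most 33871657, 67354695 and 52876610. In PC9, Int and Lep had at least 28657904, and BrM and Par at most 23781567. The part of depth in the collagen values was not tested. A gene was tested with at least 10 normalized counts in at least 2 libraries, and was called at a Benjamini-Hochberg adjusted p under 0.05 with a log2 fold change of at least 1 in size. Fold changes are on the log2(value + 1) scale and understate the change of low genes. EGFR was at 1527 to 1928 normalized counts in PC9 Lep, 11716 to 15117 in BrM, 1595 to 1867 in Int and 9147 to 9752 in Par. VIM, an intermediate filament gene of mesenchymal cells, stood at 1827 to 2189 normalized counts in PC9 BrM and 39.2 to 64.7 in PC9 Par, and Epcam and Cdh1, epithelial adhesion genes, were at 0 to 4.76 in every LLC library. In MDA-MB-231 and PC9 the deviation of a gene's value tracked transcript length. Its rank correlation with length over genes ran from −0.47 to 0.47 over MDA-MB-231 libraries, with Par 1 at 0.47 and Par 2 and Par 3 at −0.35 and −0.45. In PC9 it was −0.46 and −0.37 in Lep, 0.27 to 0.40 in BrM, −0.47 and −0.43 in Int, and 0.33 to 0.35 in Par. Collagen transcripts are long, with a median of 6425 bases against 2929 over all genes. Length-corrected values therefore stand beside many PC9 and MDA-MB-231 collagen results they bear on, but not beside those of pathway genes. In bulk libraries fewer cells of a type and less RNA per cell cannot be told apart.

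Of the 43 collagen genes, 28 passed the filter in HCC1954, 28 in MDA-MB-231, 23 in PC9 and 28 in LLC. Among them 16 passed in all 4 models. In no model did COL6A4, COL6A5, COL6A6, COL10A1, COL21A1, COL22A1 or COL25A1 pass. The highest single-library value among those left out was 8.21 in HCC1954, 12.7 in MDA-MB-231, 11.0 in PC9 and 24.3 in LLC. COL1A2, whose product pairs with the COL1A1 chain in type I collagen, was listed at 0 in all 10 HCC1954 libraries.

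Per kilobase of transcript, the leading human collagens differed between lines. COL12A1, a collagen that lies along fibril surfaces, came first at every HCC1954 stage, with means of 7448 normalized counts per kilobase in Lep, 1838 in BrM, 3370 in Int and 1568 in Par. COL13A1, a transmembrane collagen of cell adhesion sites, came first at every MDA-MB-231 stage, at 3946 in Lep, 5567 in BrM, 6493 in Int and 5489 in Par. In PC9 the first was COL4A5, a basement membrane chain, at 537 in Lep, 617 in Int and 426 in Par, and COL7A1, the anchoring fibril collagen, at 843 in BrM.

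**Figure D1:**
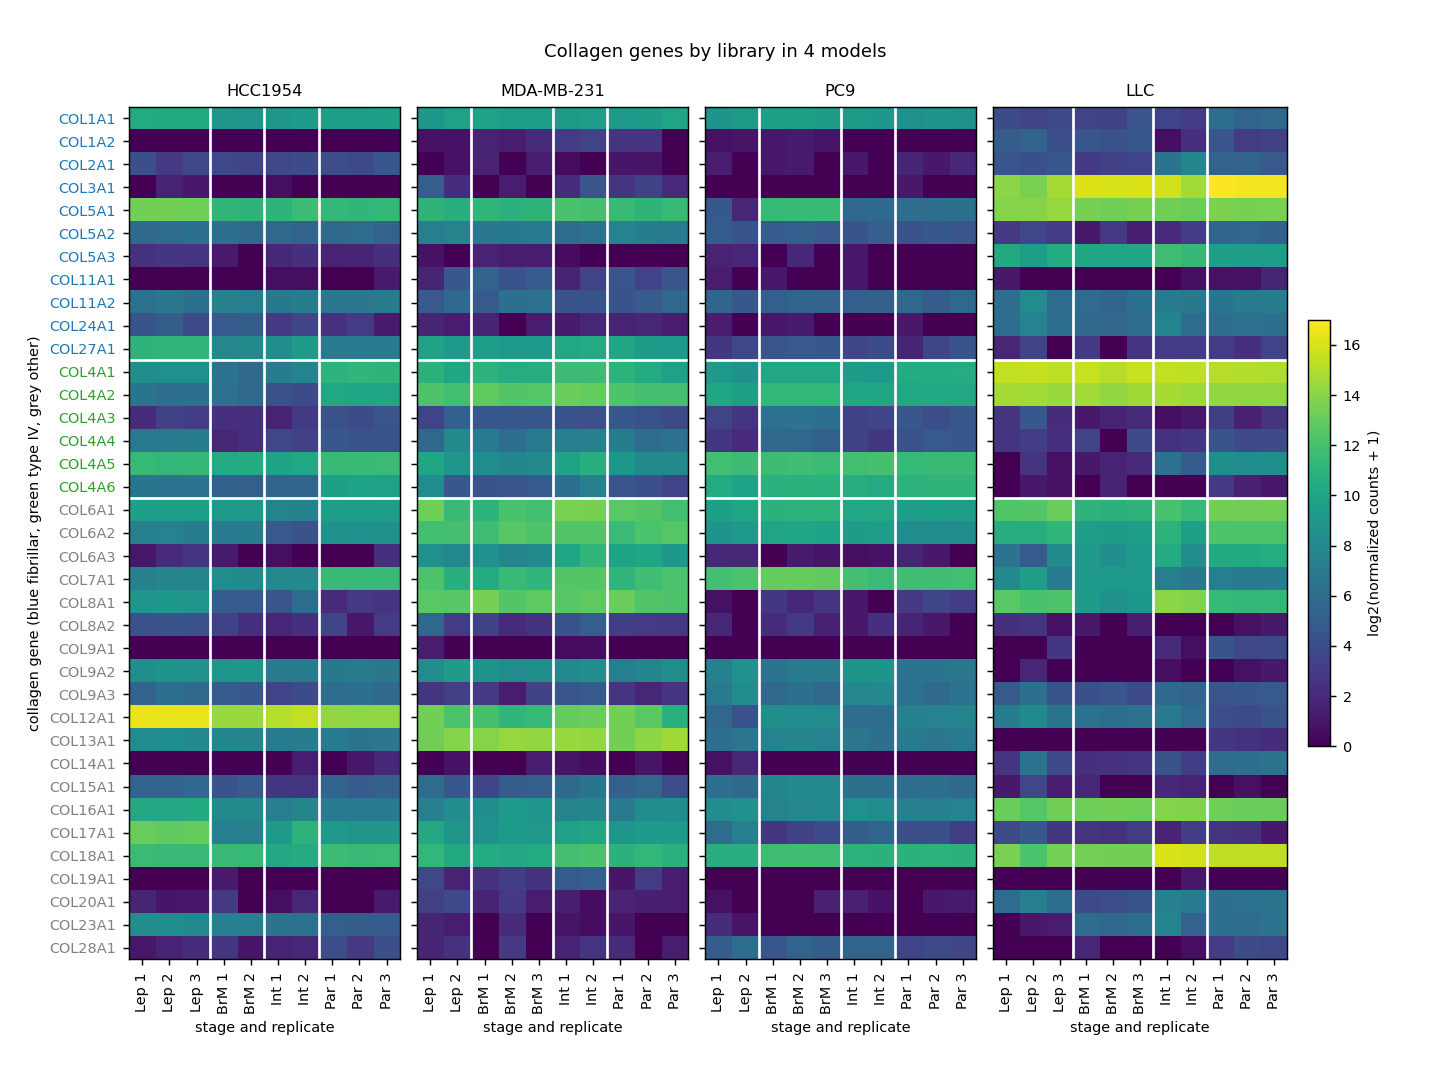
Level of each collagen gene that passed the filter in at least 1 model, as log2(normalized count + 1), with 1 column per library in the order Lep, BrM, Int, Par and 1 row per gene, grouped as fibrillar (blue), type IV (green) and other (grey). Brighter cells are higher: COL5A1 and COL17A1 are brighter in HCC1954 Lep than in the other stages, and Col3a1 in LLC is brighter in Par than in Lep.

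In HCC1954, collagens rose in Lep more often than they fell. Of the 28 tested, 19 were called between Lep and Par, against 26.8% of all genes. They were 12 higher, where 13.0% of all genes were higher, and 7 lower, where 13.8% were lower. All 3 fibrillar calls were higher, 4 of the 5 type IV calls were lower, and the other class gave 8 higher and 3 lower. The median log2 fold change was 0.32 over tested collagens and −0.02 over all tested genes. Against the same Par libraries, BrM gave 5 higher (9.63% of all genes) and 11 lower (14.0%), where 23.6% of all genes were called, with all 6 type IV chains lower. Int gave 5 higher (6.60% of all genes) and 12 lower (14.6%), where 21.2% were called. Quantile normalization gave 7 higher and 9 lower for BrM, where 24.7% of all genes were called, and 7 higher and 10 lower for Int, where 23.2% were. BrM gave 8 higher without the filter, where 21.7% of all genes were called. Without Int 2 the Int calls of COL12A1, at 0.93, and COL17A1, at 0.20, were lost. Lep stood above both other derivatives. Lep against Int gave 20 higher (11.7% of all genes) and none lower (3.47%), where 15.1% of all genes were called, with a median of 1.41 over tested collagens and 0.01 over all genes. Lep against BrM gave 11 higher (10.5%) and none lower (6.54%), where 17.1% were called, with medians of 0.85 and 0.00. Collagen genes took 0.317% to 0.337% of reads in Lep libraries, 0.0898% to 0.0925% in BrM, 0.119% to 0.155% in Int and 0.109% to 0.114% in Par. COL12A1 alone held 72.6% to 73.7% of the collagen reads in Lep and 48.8% to 50.5% in Par.

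In PC9 the stage with the high collagens was BrM, not Lep. Of 23 tested, BrM against Par gave 10 higher (4.62% of all genes) and none lower (3.10%), where 7.72% of all genes were called, and the median was 0.81 over tested collagens and −0.03 over all genes. Lep against Par gave 5 higher (6.65%) and 5 lower (8.49%), where 15.1% were called, with medians of −0.04 and 0.02. Without Lep 2 the Lep counts were 2 higher and 4 lower. Int against Par gave 5 higher (6.24%) and 4 lower (7.71%), where 13.9% were called, but 6 higher and none lower after length correction, where 11.0% were called. Lep against BrM gave 3 higher (7.83%) and 11 lower (10.8%), where 18.6% were called, with a median of −0.97 over tested collagens and 0.01 over all genes. Length correction ended 3 of those lower calls, COL4A1, COL18A1 and COL27A1, and made none. Lep against Int gave none higher (0.228%) and 1 lower (0.380%), where 0.608% were called, and none without either Int library. Collagens took 0.0627% to 0.0641% of reads in Lep, 0.119% to 0.130% in BrM, 0.0674% to 0.0690% in Int and 0.0664% to 0.0683% in Par.

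In LLC collagens fell in all derivatives more often than they rose. Of 28 tested, Lep against Par gave 3 higher (8.00% of all genes) and 11 lower (12.3%), where 20.3% of all genes were called, with a median of −0.44 over tested collagens and 0.00 over all genes. BrM against Par gave 2 higher (8.14%) and 12 lower (15.1%), where 23.2% were called, with a median of −1.24 over tested collagens and −0.05 over all genes. Int against Par gave 4 higher (6.40%) and 10 lower (5.08%), where 11.5% were called. Lep against Int gave 1 higher (8.47%) and 8 lower (14.0%), where 22.5% were called, and Lep against BrM gave 6 higher (11.1%) and 3 lower (6.85%), where 18.0% were called. These splits moved with the setting and the libraries, and the counts that follow stand without the share of all genes called in each setting. Lep against Par gave 1 higher and 10 lower without Lep 1, and 5 higher and 10 lower without Lep 3. BrM against Par gave 4 higher and 12 lower after quantile normalization, and Int against Par gave 3 higher and 6 lower without Int 2. Lep against Int gave 4 higher and 9 lower without Lep 3, 3 higher and 6 lower without Int 1, 4 higher and 7 lower after quantile normalization, and 6 higher and 8 lower without the filter. Lep against BrM gave 5 higher and 5 lower without Lep 2, and 4 higher and 4 lower after quantile normalization. Collagen genes took 0.363% to 0.434% of reads in Lep, 0.401% to 0.508% in BrM, 0.519% to 0.684% in Int and 0.687% to 0.755% in Par. The fibrillar class held 0.0830% to 0.140% of reads in Lep and 0.341% to 0.385% in Par, while type IV held 0.184% to 0.211% in Lep and 0.146% to 0.162% in Par.

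In MDA-MB-231 limma called collagens in 1 of the 5 comparisons. Int against Par gave 5 higher (4.33% of all genes) and 1 lower (2.61%) of 28 tested, where 6.94% of all genes were called, with a median of 0.77 over tested collagens and 0.02 over all genes. Each of the other 4 comparisons gave 0 calls by limma and by edgeR. Over all genes limma called 0.0662% in Lep against Par (0.0199% higher and 0.0463% lower) and 0.450% in BrM against Par (0.344% and 0.106%). It called 0.159% in Lep against Int (0.0265% and 0.132%) and 0.827% in Lep against BrM (0.344% and 0.483%). Members at an unadjusted limma p under 0.05 numbered 5, 5, 9 and 4 of 28 in that order of comparisons. Over all 15106 tested genes those counts were 1599, 2347, 2117 and 3260. DESeq2 called 2, 1, 5 and 3 members in the same order, where it called 1.81%, 3.12%, 3.11% and 4.90% of all genes. The Int count was 7 without Par 1, where 25.5% of all genes were called, close to the collagen share. It was 0 without Par 2 (0.874% of all genes) and 0 without Par 3 (2.70%). Leaving out Int 1 or Int 2 leaves 1 Int library, and no collagen call was kept there.

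**Figure D2:**
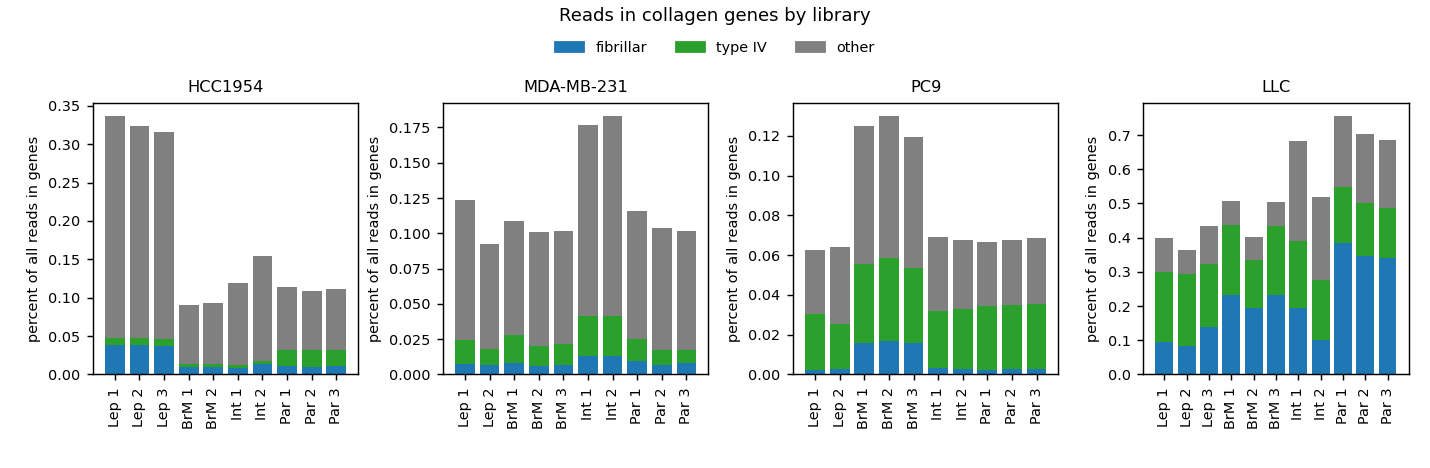
Percent of each library's reads that fell in collagen genes, stacked by class (fibrillar, type IV and other), with 1 bar per library from 0 and a separate vertical scale for each model. HCC1954 Lep bars reach 0.317% to 0.337% against 0.109% to 0.114% in Par, PC9 BrM bars stand above the other PC9 stages, and LLC Lep bars reach 0.363% to 0.434% against 0.687% to 0.755% in Par.

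**Figure D3:**
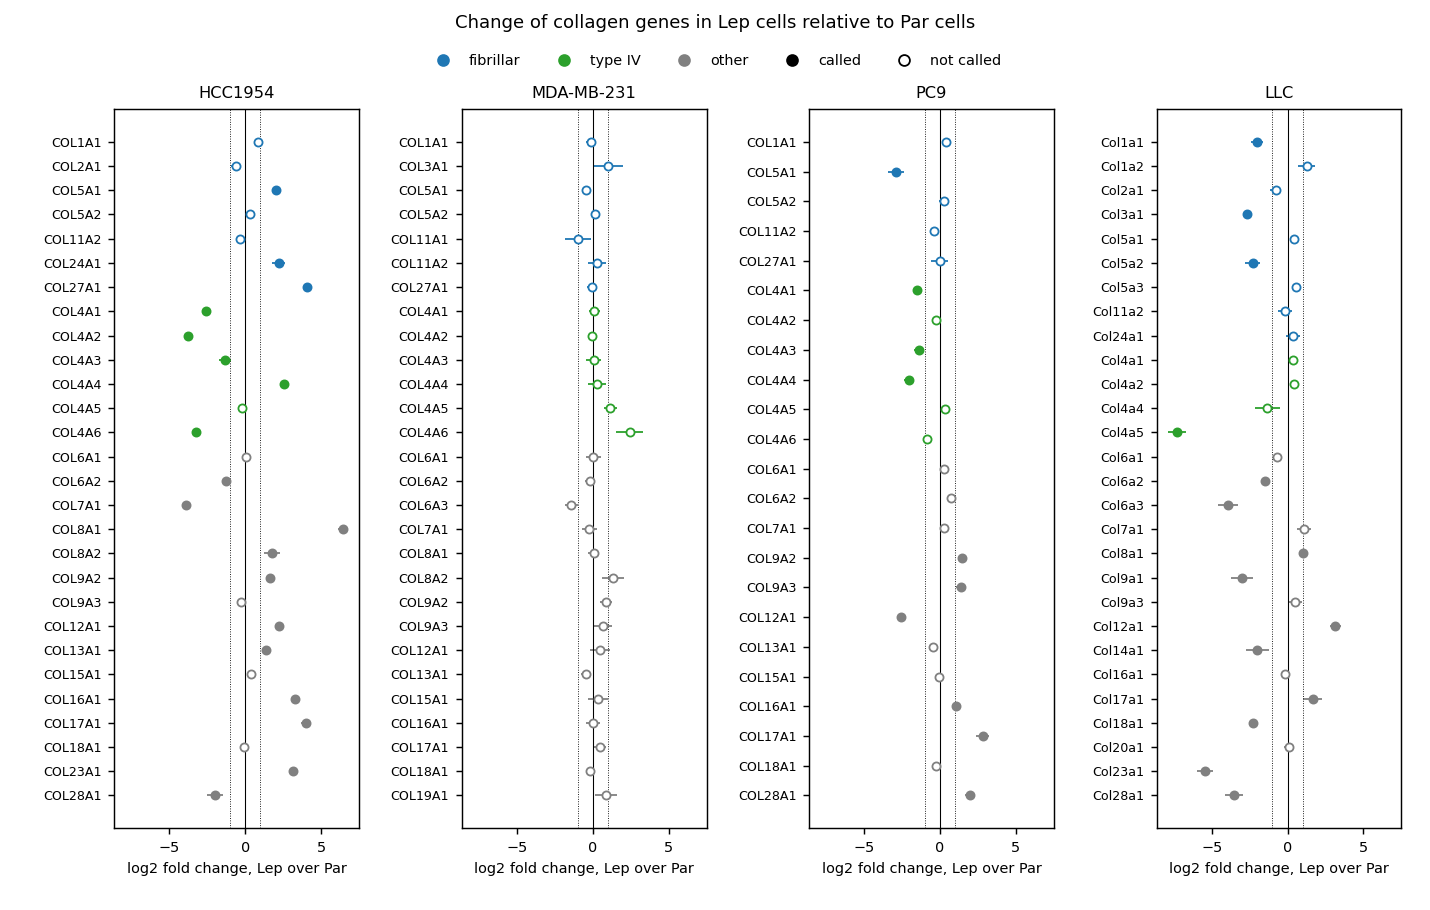
Log2 fold change of Lep over Par for each tested collagen gene in each model, on the log2(value + 1) scale, with bars of 1 standard error and dotted lines at −1 and 1. Filled points are called and open points are not: COL8A1 at 6.44 and COL27A1 at 4.09 lie farthest right in HCC1954, Col4a5 at −7.30 lies farthest left in LLC, and no point is filled in MDA-MB-231.

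Among fibrillar collagens, COL5A1 changed in HCC1954 Lep and in PC9 Lep and BrM. COL5A1, a chain of type V collagen that helps start fibrils, had 10426, 10444 and 9935 normalized counts in HCC1954 Lep, 2279 and 2122 in BrM, 2121 and 3190 in Int, and 2592, 2317 and 2587 in Par. The Lep libraries lay far above all others, which overlapped one another. The Lep over Par change was 2.04 ± 0.10 (log2, SE; limma adjusted p = 5.3e-10), Lep over BrM was 2.22 and Lep over Int was 1.98, all called. In PC9 the same gene had 24.2 and 2.51 normalized counts in Lep, 2710, 2785 and 2844 in BrM, 50.3 and 54.9 in Int, and 66.2, 68.4 and 77.0 in Par. Here the BrM libraries stood alone at the top, the Lep libraries at the bottom, and no stages overlapped. COL5A1 rose in PC9 BrM by 5.28 ± 0.47 over Par (adjusted p = 2.4e-06 by limma) and fell in PC9 Lep by 2.92 ± 0.53 against Par (adjusted p = 0.00033), a difference that is −2.41 after length correction. The 2 PC9 Lep libraries were far apart, so the Lep over Par change was −4.35 without Lep 1 and −1.50 without Lep 2, called both times. Lep over BrM was −8.21 on the log2 scale, −7.69 with the correction, −9.63 without Lep 1 and −6.79 without Lep 2.

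The partner chain did not follow. COL5A2, which joins COL5A1 chains in type V collagen, ranged from 56.3 to 72.5 normalized counts in HCC1954 Lep and 40.8 to 59.2 in Par, and from 20.1 to 31.5 in PC9 Lep, 26.0 to 34.2 in PC9 BrM and 18.4 to 24.4 in PC9 Par. Neither line gave a call for it. In MDA-MB-231, COL5A2 had 62.6 and 81.8 in Int and 186, 145 and 134 in Par, with no overlap, and fell by 1.09 ± 0.25 (limma adjusted p = 0.034). That call was lost when any library of the 2 groups was left out, with −0.95 without Par 1. It was also lost without the filter, with the replicate block and in the fit of those 2 groups only. COL5A1 in MDA-MB-231 had 4372 and 4048 in Int and 2130 to 2848 in Par, a log2 difference of 0.71 that is under the threshold of 1.

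Of type I collagen, the main collagen of bone and skin, the COL1A1 chain was tested in the human lines. COL1A1 had 1320, 1307 and 1268 normalized counts in HCC1954 Lep, 500 and 498 in BrM, 512 and 682 in Int, and 705, 729 and 756 in Par. Lep lay highest with no overlap, and was called against Int at 1.13 and BrM at 1.38 but not against Par, at 0.83 ± 0.08 (limma adjusted p = 4.1e-07). Without Int 1, the difference from Int was 0.93 and was not called. In PC9 COL1A1 ran from 435 to 625 in Lep, 673 to 811 in BrM, 528 to 605 in Int and 365 to 442 in Par, with no call. COL1A2 did not pass the filter in any human line.

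COL27A1, a fibrillar chain known from cartilage, made the largest fibrillar change in HCC1954 Lep. It had 2083, 2189 and 2184 normalized counts in Lep, 238 and 257 in BrM, 319 and 630 in Int, and 127, 127 and 121 in Par. The order Lep, Int, BrM, Par held without overlap. Relative to Par, Lep changed by 4.09 ± 0.17 (limma adjusted p = 5.8e-11), Int over Par was 1.83, Lep over BrM was 3.12 and Lep over Int was 2.26, all called, while BrM over Par was 0.98 and was not, though it was 1.28 and called after quantile normalization. The third fibrillar gene higher in HCC1954 Lep was COL24A1, at 13.8 to 31.4 normalized counts in Lep and 1.32 to 7.11 in Par. In PC9 COL27A1 stayed at or under 26.3 in every library.

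In LLC the leading fibrillar change was the fall of Col3a1, the type III collagen of soft connective tissue. It had 17099, 11968 and 27048 normalized counts in Lep, 70510, 64765 and 70708 in BrM, 58721 and 26073 in Int, and 120281, 108805 and 106733 in Par. Every derivative library lay under every Par library, and Lep was lowest apart from an overlap with Int 2. Lep differed from Par by −2.66 ± 0.30 (limma adjusted p = 2.8e-05), Int over Par was −1.51 (adjusted p = 0.0061), and BrM over Par was −0.70 and was not called. The Int call was lost without Int 2, at −0.93 (adjusted p = 0.098), and was −2.10 without Int 1. Lep over BrM was −1.96 and called. Lep over Int was −1.15 and called, but was −0.86 without Lep 2, −0.56 without Int 1 and −0.98 after quantile normalization, each uncalled. In the human lines COL3A1 was near absent, with at most 34.1 normalized counts in any library, in MDA-MB-231 Lep 1.

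Other LLC fibrillar chains moved in different ways. Col5a1 had 14842, 15153 and 19935 normalized counts in Lep, 11929, 9980 and 11959 in BrM, 10184 and 9210 in Int, and 12980, 11879 and 12243 in Par, and was called nowhere, with a Lep over Par difference of 0.42. Its partner Col5a2 had 6.39, 11.5 and 7.03 in Lep and 45.5, 48.5 and 38.0 in Par, and fell by 2.31 ± 0.49 (limma adjusted p = 0.0024). Col5a3, a further type V chain, had 3366 and 2604 in Int and 781, 743 and 745 in Par, and rose by 1.97 ± 0.24 (adjusted p = 0.00017). Lep libraries of Col5a3 ran from 723 to 1430 and overlapped Par. Col2a1, the cartilage fibril collagen, rose in Int, at 97.0 and 226 against 26.2 to 42.0 in Par, a difference of 2.02 that was 1.42 and uncalled without Int 2 (limma adjusted p = 0.068) and 2.63 without Int 1.

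The type I chains of LLC were low and split. Col1a1 had 14.1, 10.2 and 14.8 normalized counts in Lep, 8.73 to 21.4 in BrM, 9.87 and 6.75 in Int, and 69.7, 41.2 and 54.7 in Par. It fell in all 3 derivatives, with changes of −1.99 in Lep, −2.03 in BrM, which was −1.44 and called after quantile normalization, and −2.58 in Int. Col1a2 had 30.7, 42.2 and 16.2 in Lep, 0.548 and 3.94 in Int and 6.64 to 22.8 in Par, so that Lep overlapped Par and lay above Int, by 3.37 ± 0.61 (limma adjusted p = 0.00089). That difference was 2.54 without Int 1, 4.21 without Int 2 and 2.22 at a pseudocount of 5, called each time.

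The LLC libraries also differed in genes of fibroblasts, which make type I and III collagen in tissue. All 20 genes of the fibroblast list were found and 13 passed the filter. Its summed level was 26978 to 39135 normalized counts in Lep, 66734 to 121854 in BrM, 21101 to 24037 in Int and 21588 to 36996 in Par, so Lep overlapped Par and BrM lay above every other stage. S100a4, a calcium-binding protein gene, made up most of that sum, at 21393 to 35064 in Lep, 63674 to 118739 in BrM, 13819 to 19125 in Int and 14649 to 29577 in Par. Some members were lower in Lep than in Par. Decorin, Dcn, ran from 178 to 330 in Lep, 80.7 to 100 in BrM, 510 to 1648 in Int and 1490 to 1947 in Par. Lumican, Lum, ran from 0 to 1.28 in Lep, 148 to 171 in BrM, 213 to 928 in Int and 191 to 224 in Par. The receptor gene Pdgfra ran from 921 to 1865 in Lep, 570 to 819 in BrM, 2765 to 3411 in Int and 2115 to 2719 in Par. Others were higher in Lep. The receptor gene Pdgfrb ran from 394 to 1228 in Lep, 52.4 to 82.4 in BrM, 47.8 to 64.1 in Int and 120 to 141 in Par. Smooth muscle actin, Acta2, ran from 302 to 749 in Lep, 665 to 1020 in BrM, 125 to 304 in Int and 20.2 to 39.8 in Par. At 0 in every library of a stage were Abcc9 and Kcnj8 in Lep and Int, the same pair with Aldh1a2, Tbx18 and Thy1 in BrM, and Aldh1a2 and Thy1 in Par. Their part in the collagen values was not tested. In PC9, 10 of the 20 genes passed the filter. Their list summed to 9899 to 13476 in Lep, 4511 to 5092 in BrM, 9831 to 10783 in Int and 5140 to 5432 in Par. CRABP2 made up most of it, at 7669 to 11876 in Lep and 4111 to 4274 in Par. MGP ran from 137 to 316 in Lep and 2.70 to 12.3 in Par, and S100A4 from 502 to 731 and 94.4 to 123. FOXC1, RGS5 and CSPG4 overlapped between those stages. DCN, LUM, PDGFRA, KCNJ8, ZIC1 and TBX18 were at 0 at every PC9 stage.

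The 6 type IV genes lie in 3 pairs, head to head on opposite strands with a shared promoter region. Because the members of a pair did not always move together, the bases common to both genes' RefSeq promoter windows are shown for each pair, on the plus strand of GRCh38.p14. Windows reach from 250 bases before to 50 after each annotated start. Capitals mark CCAAT and GGGCGG in either strand, so ATTGG is CCAAT read on the other strand, and TATAAA was searched as well.
COL4A1 and COL4A2: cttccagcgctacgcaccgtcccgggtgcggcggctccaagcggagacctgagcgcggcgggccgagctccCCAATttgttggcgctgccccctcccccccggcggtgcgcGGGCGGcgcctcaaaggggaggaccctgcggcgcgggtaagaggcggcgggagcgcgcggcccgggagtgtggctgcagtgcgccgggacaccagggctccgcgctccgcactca
COL4A4 and COL4A3: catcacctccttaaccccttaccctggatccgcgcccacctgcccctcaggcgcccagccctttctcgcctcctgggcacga
COL4A6 and COL4A5: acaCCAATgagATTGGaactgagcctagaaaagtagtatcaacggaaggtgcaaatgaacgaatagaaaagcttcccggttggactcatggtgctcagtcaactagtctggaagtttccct

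The COL4A1 and COL4A2 stretch, chr13:110307108-110307333, is 226 bases long with starts 127 bases apart, holds 1 CCAAT and 1 GGGCGG, and is 76.5% G or C. The COL4A4 and COL4A3 stretch, chr2:227164374-227164455, has 82 bases with starts 419 apart and none of the searched motifs. The COL4A6 and COL4A5 stretch, chrX:108439588-108439708, has 121 bases with starts 380 apart, holds CCAAT on each strand, and is 44.6% G or C. In each pair the gene named first is read from the minus strand and the other from the plus strand. Of 35116 promoter windows in the table, 34.6% hold CCAAT, 45.0% GGGCGG and 11.5% TATAAA. Of the 43 human collagen symbols 31 had a window, and with COL26A1, which the tables do not list, 32 genes had 44 windows. Their shares were 31.8%, 54.5% and 18.2%, close to those of all windows for CCAAT.

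COL4A1 and COL4A2, the chains of the common basement membrane network, fell in every HCC1954 derivative. COL4A1 had 353, 369 and 375 normalized counts in Lep, 86.7 and 57.4 in BrM, 144 and 206 in Int, and 2024, 2323 and 2165 in Par. COL4A2 had 95.0, 67.0 and 75.0 in Lep, 79.0 and 58.4 in BrM, 17.4 and 13.6 in Int, and 1106, 1082 and 1059 in Par. Both were lower in every derivative library than in any Par library. COL4A1 changed by −2.56 ± 0.14 in Lep (limma adjusted p = 1.2e-09), −4.92 in BrM and −3.65 in Int over Par. COL4A2 changed by −3.77 ± 0.15 (adjusted p = 5.2e-11), −3.97 and −6.05 in the same order. COL4A1 was higher in Lep than in Int by 1.08, which was 0.83 without Int 1 and uncalled, and which was also lost under quantile normalization.

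The balance of the pair shifted between stages. The ratio of COL4A2 to COL4A1 normalized counts was 0.182 to 0.269 in HCC1954 Lep, 0.910 to 1.02 in BrM, 0.0663 to 0.121 in Int and 0.466 to 0.546 in Par. In PC9 it was 1.72 to 1.96 in Lep, 2.07 to 2.20 in BrM, 1.68 to 1.71 in Int and 0.747 to 0.813 in Par. In LLC it barely moved, at 0.535 to 0.598 in Lep, 0.505 to 0.523 in BrM, 0.532 to 0.619 in Int and 0.528 to 0.555 in Par.

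In PC9, COL4A1 fell in Lep and Int while COL4A2 rose in BrM. COL4A1 had 593 and 406 normalized counts in Lep, 1172, 1122 and 1123 in BrM, 637 and 582 in Int, and 1417, 1362 and 1465 in Par. Lep and Int overlapped each other and lay under BrM and Par. Lep over Par was −1.52 ± 0.12 (limma adjusted p = 3.4e-07) and −1.16 after length correction, still called. Int over Par was −1.21, and −0.85 after length correction, which ended the call. COL4A2 had 1017 and 796 in Lep, 2425, 2470 and 2464 in BrM, 1067 and 996 in Int, and 1117, 1107 and 1094 in Par, and rose in BrM by 1.15 ± 0.08 over Par (adjusted p = 2.1e-07). Lep over BrM was −1.45 for COL4A2, called with and without the correction, and −1.21 for COL4A1, where the call was lost after length correction at −0.84 and without Lep 2 at −0.94.

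COL4A3 and COL4A4, which join COL4A5 in the network of the kidney filter, parted in HCC1954 Lep. COL4A4 had 121, 120 and 141 normalized counts in Lep, 2.59 and 4.17 in BrM, 11.1 and 8.92 in Int, and 23.0, 19.0 and 19.8 in Par. It was the single type IV gene that rose in HCC1954 Lep, by 2.57 ± 0.22 over Par (limma adjusted p = 9.9e-08), and it stood 4.89 above BrM and 3.55 above Int. COL4A3 had 3.52, 8.65 and 7.50 in Lep and 17.6, 14.2 and 21.1 in Par, and fell by 1.36 ± 0.39 (adjusted p = 0.0058), a call that was lost at a pseudocount of 5. The ratio of COL4A4 to COL4A3 was 13.9 to 34.3 in Lep and 0.938 to 1.33 in Par.

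In PC9 this pair moved together. COL4A3 had 10.3 and 5.02 normalized counts in Lep, 81.2, 88.0 and 71.3 in BrM, 8.81 and 10.7 in Int, and 23.3, 15.9 and 23.0 in Par. COL4A4 had 5.87 and 3.34 in Lep, 54.1, 49.9 and 35.6 in BrM, 8.81 and 5.74 in Int, and 17.2, 26.9 and 23.0 in Par. For both genes BrM lay above Par, and Par above Lep and Int, without overlap. BrM over Par was 1.92 for COL4A3 (limma adjusted p = 0.00013) and 1.03 for COL4A4 (adjusted p = 0.015). The COL4A4 call was lost at a pseudocount of 5, at 0.91, after quantile normalization, at 0.95, and without any of BrM 1, BrM 2 or Par 1, at 0.86 to 0.97. Relative to Par, Lep changed by −1.38 for COL4A3, which was −0.89 after length correction and −0.93 without Lep 2, both uncalled, and −2.07 for COL4A4, which was −1.48 and still called. The Int calls for both were lost after that correction, at −0.52 for COL4A3 and −0.92 for COL4A4.

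COL4A6, a chain of epithelial and smooth muscle basement membranes, fell in every HCC1954 derivative while COL4A5 differed less. COL4A6 had 98.5, 86.5 and 88.8 normalized counts in Lep, 37.5 and 34.4 in BrM, 45.8 and 46.2 in Int, and 813, 921 and 853 in Par. COL4A5 had 2690, 2501 and 2514 in Lep, 1368 and 1378 in BrM, 909 and 1174 in Int, and 2919, 2974 and 3025 in Par. Lep differed from Par by −3.23 ± 0.10 for COL4A6 (limma adjusted p = 5.7e-12) and −0.21 for COL4A5, and BrM over Par was −4.54 and −1.11. The ratio of COL4A6 to COL4A5 was 0.0346 to 0.0366 in Lep and 0.278 to 0.310 in Par. In PC9 neither gene was called: COL4A6 ran from 939 to 1411 in Lep and 2054 to 2139 in Par, and COL4A5 from 3210 to 3755 in Lep and 2725 to 2784 in Par.

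LLC kept its common type IV chains and lost Col4a5. Col4a1 had 44473, 46424 and 41775 normalized counts in Lep and 36661, 34463 and 32749 in Par, a difference of 0.35, and Col4a2 had 26580, 25938 and 22358 in Lep and 19351, 18921 and 18187 in Par, a difference of 0.40. Lep lay above Par for both genes, under the threshold of 1. Col4a5 had 0, 5.11 and 0.703 in Lep, 1.27, 2.18 and 3.29 in BrM, 54.6 ± 35.9 in Int (mean and SD, n = 2), and 349, 329 and 355 in Par. No derivative library reached the Par libraries. The change over Par was −7.30 ± 0.59 in Lep (limma adjusted p = 2.7e-06), −6.78 in BrM and −2.80 in Int. The Lep value was −8.05 without Lep 2 and −5.72 at a pseudocount of 5, still called. The Int call was lost without Int 2, at −2.09 (adjusted p = 0.12), and was −3.51 without Int 1. Col4a6 did not pass the filter, with at most 6.40.

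In MDA-MB-231 COL4A2 had 5011 and 3705 normalized counts in Lep, 7373, 5657 and 5941 in BrM, 9435 and 8262 in Int, and 5077, 4013 and 4088 in Par. COL4A5 had 1091 and 498 in Lep, 302, 219 and 276 in BrM, 946 and 1635 in Int, and 530, 261 and 254 in Par. Int lay above Par for both without overlap, by 1.02 ± 0.20 for COL4A2 (limma adjusted p = 0.022) and 1.92 ± 0.43 for COL4A5 (adjusted p = 0.031). Each of these calls was lost without any of Int 1, Int 2, Par 2 or Par 3 and in the fit of those 2 groups only. COL4A2 was 0.63 and uncalled after length correction, and COL4A5 was 1.54 and called. COL4A1 had 3211 and 3158 in Int and 846 to 2027 in Par, with a difference of 1.26 that did not pass by limma (adjusted p = 0.058), while DESeq2 called 1.17 (adjusted p = 0.016) and limma after quantile normalization 1.26 (adjusted p = 0.047). COL4A6 had 308 and 23.9 in Lep and 9.70 to 21.2 in Par, and its Lep difference of 2.45 was uncalled by limma, 4.27 and called by limma without Lep 2 (adjusted p = 0.021), and 3.38 and called by DESeq2 (adjusted p = 0.0055).

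**Figure D4:**
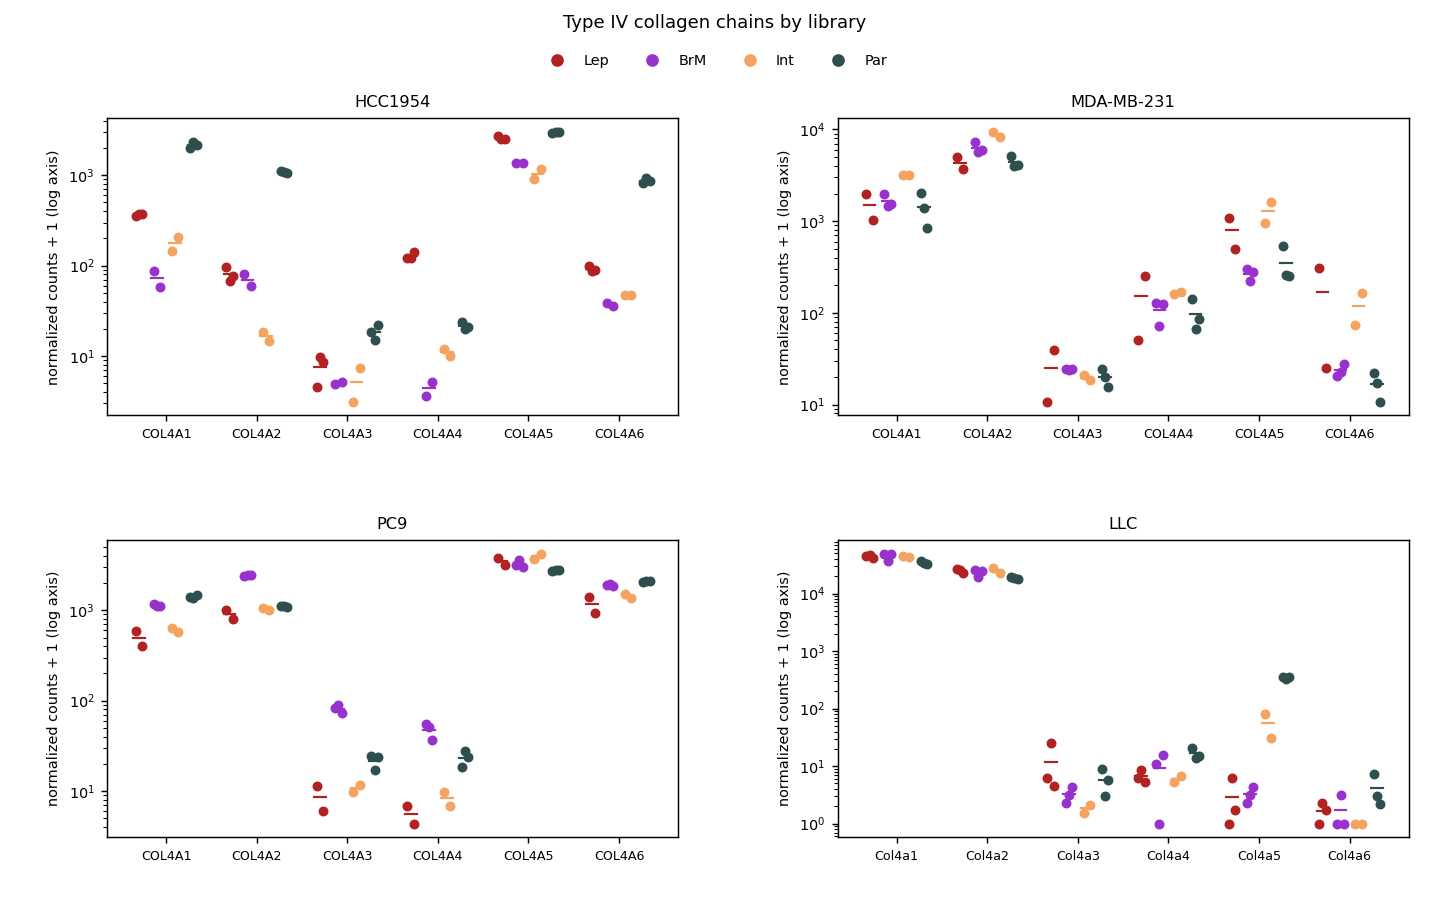
Normalized count + 1 of the 6 type IV collagen genes in each library, on a log axis, with 1 panel per model, stages in the order Lep, BrM, Int, Par, dots for libraries and bars for means. In HCC1954 the Lep dots lie under the Par dots for COL4A1, COL4A2 and COL4A6 and above them for COL4A4, and in LLC Col4a5 lies at 0 to 5.11 in Lep against 329 to 355 in Par.

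Type VI collagen, the beaded filament collagen around cells, has 3 classical chains. COL6A2 had 171, 185 and 145 normalized counts in HCC1954 Lep, 127 and 141 in BrM, 25.3 and 19.4 in Int, and 401, 389 and 416 in Par. COL6A1 had 765, 775 and 758 in Lep, 553 and 591 in BrM, 190 and 174 in Int, and 747, 723 and 712 in Par. Int was lowest for both. COL6A2 fell in all 3 derivatives, with changes of −1.27 ± 0.13 in Lep (limma adjusted p = 5.3e-07), −1.58 in BrM and −4.12 in Int. COL6A1 was called against Par in Int, at −1.99, and differed by 0.07 in Lep and −0.35 in BrM. The ratio of COL6A2 to COL6A1 was 0.191 to 0.238 in Lep and 0.537 to 0.585 in Par. COL6A3 did not pass the filter in HCC1954 or PC9.

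In PC9 BrM both chains rose. COL6A1 had 816 and 1027 normalized counts in Lep, 1975, 2055 and 2062 in BrM, 1104 and 1179 in Int, and 747, 813 and 745 in Par. COL6A2 had 439 and 581 in Lep, 984, 1056 and 942 in BrM, 647 and 719 in Int, and 314, 307 and 303 in Par. BrM libraries lay above all others for both, by 1.40 over Par for COL6A1 (limma adjusted p = 4.5e-08) and 1.69 for COL6A2 (adjusted p = 4.9e-08). COL6A2 also rose in Int, by 1.15, and differed by 0.71 in Lep. Lep over BrM was −1.15 for COL6A1, called, and −0.98 and uncalled without Lep 1.

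In LLC the 3 type VI chains fell in different derivatives. Col6a3 had 88.2, 26.8 and 276 normalized counts in Lep, 578, 352 and 573 in BrM, 1425 and 336 in Int, and 1310, 1263 and 1477 in Par. Lep was lowest without overlap, while Int 1 lay among the Par libraries. Col6a1 had 5327, 5588 and 8539 in Lep, 2149, 1923 and 2150 in BrM, 4520 and 2649 in Int, and 10841, 10124 and 10106 in Par. Col6a2 had 1538, 1553 and 2257 in Lep, 751, 657 and 744 in BrM, 2006 and 825 in Int, and 5169, 4821 and 4915 in Par. For these 2 chains BrM was lowest. The Lep over Par change was −3.93 ± 0.67 for Col6a3 (limma adjusted p = 0.00055), −1.50 ± 0.26 for Col6a2 (adjusted p = 0.00056) and −0.71 for Col6a1, which is under the threshold. The Col6a3 change was −3.10 without Lep 2 and −4.76 without Lep 3, called both times. BrM over Par was −2.32 for Col6a1 and −2.79 for Col6a2, both called, and −1.46 for Col6a3 (adjusted p = 0.083), which passed with the replicate block (adjusted p = 0.028) and in the fit of those 2 groups only (adjusted p = 0.0011). Int over Par was −1.58 for Col6a1 and −1.95 for Col6a2, both called, and −0.96 for Col6a3. The Col6a2 value was −2.59 without Int 1 and −1.31 without Int 2. Lep over Int for Col6a3 was −2.97 and called, and −1.94 and uncalled without Int 1 (adjusted p = 0.12), with called values of −4.01 without Int 2, −2.14 without Lep 2 and −3.80 without Lep 3.

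In MDA-MB-231 limma gave no call for type VI, and DESeq2 called COL6A3 in 3 comparisons. COL6A1 had 9615 and 2833 normalized counts in Lep, 2035 to 4359 in BrM, 12240 and 11927 in Int and 3699 to 6371 in Par. COL6A3 had 368 and 247 in Lep, 392, 213 and 262 in BrM, 1086 and 2338 in Int, and 945, 1065 and 527 in Par, with Lep and BrM under Par without overlap. Its Lep over Par difference of −1.42 had an adjusted p = 0.3 by limma, and DESeq2 called −1.46 (adjusted p = 0.037). DESeq2 also called BrM over Par, at −1.55 (adjusted p = 0.0044), and Lep over Int, at −2.48 (adjusted p = 5.5e-05).

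The anchoring fibril collagen and the hemidesmosome collagen moved oppositely in HCC1954 Lep. COL7A1, which ties epithelial basement membranes to the tissue beneath, had 167, 215 and 203 normalized counts in Lep, 311 and 251 in BrM, 242 and 252 in Int, and 2813, 2853 and 2960 in Par. It fell in all derivatives, with changes over Par of −3.89 ± 0.09 in Lep (limma adjusted p = 3.9e-13), −3.36 in BrM and −3.53 in Int. COL17A1, the transmembrane collagen of hemidesmosomes, had 8498, 7479 and 8003 in Lep, 158 and 171 in BrM, 574 and 1991 in Int, and 566, 476 and 464 in Par. Lep lay highest and BrM lowest, and the Int libraries differed from each other more than Int 1 did from Par. COL17A1 rose in Lep by 3.99 ± 0.30 over Par (adjusted p = 2.6e-08), 5.59 over BrM and 2.90 over Int, and fell in BrM by 1.60 against Par. Its Int over Par call of 1.09 was lost without Int 2, at 0.20, and was 1.99 without Int 1. Lep over Int was 2.00 without Int 1 and 3.80 without Int 2. Per kilobase, COL17A1 was second to COL12A1 in HCC1954 Lep, at 1405.

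In PC9 COL17A1 rose in Lep as well, from a low level. It had 62.3 and 154 normalized counts in Lep, 5.88, 9.20 and 12.5 in BrM, 31.4 and 44.2 in Int, and 15.9, 17.1 and 8.10 in Par. Lep libraries were highest and BrM overlapped Par. Lep over Par was 2.81 ± 0.43 (limma adjusted p = 8.4e-05) and 3.09 after length correction, and Lep over BrM was 3.33 and 3.62. Lep over Par was 3.46 without Lep 1 and 2.17 without Lep 2, and Lep over BrM was 3.98 and 2.69 in the same order, all called. The Int call of 1.44 was lost without Int 2. COL7A1 had 3876 and 4569 in Lep, 8001, 7987 and 7460 in BrM, 3837 and 3110 in Int, and 3471, 3532 and 3677 in Par, and rose in BrM by 1.13 ± 0.08 over Par (adjusted p = 2.9e-07). Its Lep over Par difference was 0.24, and 0.80 after length correction (limma adjusted p = 8.5e-06), under the threshold of 1 both times.

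Col17a1 stayed at or under 24.3 normalized counts in LLC. Its Lep over Par call of 1.65, at 12.8, 24.3 and 5.62 in Lep and 4.98, 4.65 and 1.19 in Par, was lost without any of Lep 1, Lep 2, Par 2 or Par 3, by DESeq2 and in the fit of those 2 groups only. Col7a1 had 279, 736 and 129 in Lep, 559, 592 and 588 in BrM, 152 and 105 in Int, and 156, 127 and 139 in Par. It rose in BrM by 2.04 ± 0.45 (limma adjusted p = 0.0024), while Lep 3 lay among the Par libraries and the Lep difference of 1.08 did not pass by limma, becoming 1.68 without Lep 3 (adjusted p = 0.0018). It was called by edgeR at 1.41 (adjusted p = 0.021), by DESeq2 at 1.44 (adjusted p = 0.0025) and by limma after quantile normalization at 1.37 (adjusted p = 0.02). In MDA-MB-231 COL7A1 ran from 1629 to 4850 in Lep and 2188 to 4653 in Par, and COL17A1 from 464 to 1216 and 483 to 589, with overlap and no call.

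COL8A1, a short-chain collagen of endothelial and corneal matrix, showed the largest change over Par of the 28 tested collagens in HCC1954. It had 491, 538 and 460 normalized counts in Lep, 29.8 and 29.2 in BrM, 21.6 and 69.2 in Int, and 3.29, 5.92 and 5.27 in Par. All derivatives lay above Par and Lep above the others. Lep differed from Par by 6.44 ± 0.33 (limma adjusted p = 4.6e-10), BrM over Par was 2.42, Int over Par was 2.80, Lep over BrM was 4.03 and Lep over Int was 3.64, all called. Lep over Par was 5.68 at a pseudocount of 5 and 7.07 after quantile normalization. Int over Par was 3.62 without Int 1 and 1.98 without Int 2, and Lep over Int was 2.82 and 4.46 in the same order, all called. Its partner COL8A2 rose too, at 17.6, 20.5 and 17.5 in Lep and 1.18 to 11.0 in Par, by 1.74 ± 0.52 (adjusted p = 0.0073), which was 1.03 without Par 2 and 2.34 after quantile normalization.

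LLC Col8a1 took a different order of stages. It had 6362, 4377 and 4962 normalized counts in Lep, 635, 430 and 535 in BrM, 16991 and 14123 in Int, and 2669, 2449 and 2493 in Par. No stages overlapped, with Int highest, then Lep, then Par, then BrM. Int over Par was 2.61 ± 0.18 (limma adjusted p = 5.1e-06), Lep over Par was 1.03 ± 0.17 (adjusted p = 0.00036) and 0.88 and uncalled without Lep 1, with the call also lost after quantile normalization, and BrM over Par was −2.26. Lep over BrM was 3.29 and Lep over Int was −1.58. PC9 held COL8A1 at 11.0 or under, and MDA-MB-231 held it at 6459 and 6231 in Lep, 5503 to 11956 in BrM, 6228 and 7126 in Int and 4816 to 8937 in Par, with no call.

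COL12A1 moved in opposite directions in HCC1954 and PC9. In HCC1954 it had 92170, 86366 and 83411 normalized counts in Lep, 20868 and 22236 in BrM, 35103 and 43916 in Int, and 19102, 17690 and 18348 in Par. Every derivative lay above Par, with Lep highest. The Lep over Par change was 2.25 ± 0.07 (limma adjusted p = 2.1e-12), and Lep over BrM was 2.02. Int over Par was 1.10, and 0.93 without Int 2, and Lep over Int was 1.15, and 0.99 without Int 1 and uncalled also under quantile normalization. In PC9 it had 49.9 and 18.4 in Lep, 357, 301 and 296 in BrM, 67.9 and 65.6 in Int, and 174, 189 and 197 in Par. Here Lep was lowest, BrM highest, and no stages overlapped. Relative to Par, Lep changed by −2.58 ± 0.29 (adjusted p = 5.5e-06) and −1.93 after length correction, and Lep over BrM was −3.34 and −2.69, all called. Lep over Par was −3.27 without Lep 1 and −1.88 without Lep 2, and Lep over BrM was −4.03 and −2.64 in the same order, all called. Int over Par was −1.47, and −0.84 and uncalled after the correction.

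LLC Col12a1 rose in all 3 derivatives. It had 138, 265 and 90.7 normalized counts in Lep, 82.4, 69.9 and 84.0 in BrM, 123 and 60.2 in Int, and 15.6, 12.6 and 20.2 in Par. Derivatives overlapped one another and lay above Par. Lep over Par was 3.15 ± 0.38 (limma adjusted p = 5.4e-05), BrM over Par was 2.24 and Int over Par was 2.37. MDA-MB-231 Par libraries spread widely for this gene, at 10758, 6402 and 1750, with 10468 and 4603 in Lep, and gave no call.

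Among other collagens that associate with fibrils, COL16A1 had 1242, 1234 and 1261 normalized counts in HCC1954 Lep, 254 and 263 in BrM, 162 and 214 in Int, and 124, 121 and 129 in Par. It rose in Lep by 3.31 ± 0.09 over Par (limma adjusted p = 1.2e-12), with all Lep libraries far above the rest. COL9A2, a chain of the collagen on cartilage fibrils, had 319, 403 and 383 in HCC1954 Lep, 485 and 530 in BrM, 133 and 122 in Int, and 117, 134 and 108 in Par, and rose in Lep by 1.61 and in BrM by 2.08. In PC9 it had 175 and 385 in Lep, 94.1 to 123 in BrM, 435 and 452 in Int, and 89.5 to 108 in Par, and rose in Lep by 1.42 and in Int by 2.19. The PC9 Lep call was lost without Lep 2, at 0.85. COL9A3, its partner, had 127 and 298 in PC9 Lep, 233 and 257 in Int, and 56.2 to 87.8 in Par, and rose by 1.38 in Lep and 1.71 in Int. Its Lep value was 1.99 without Lep 1 and 0.76, with the call lost, without Lep 2. COL9A3 exons overlap exons of TCFL5 on the other strand, and the kit does not keep strand, so reads of the 2 genes cannot be told apart there.

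COL18A1, a basement membrane collagen whose end fragment is endostatin, separated the lines. In LLC it had 12013, 4744 and 11421 normalized counts in Lep, 11049, 10606 and 10836 in BrM, 69344 and 59640 in Int, and 42825, 43257 and 41971 in Par. Lep and BrM overlapped, far under Par and Int. The Lep over Par change was −2.30 ± 0.27 (limma adjusted p = 3.9e-05), BrM over Par was −1.98 and Lep over Int was −2.89, all called. In HCC1954 it had 3039, 2984 and 2822 in Lep, 2747 and 2672 in BrM, 1236 and 1380 in Int, and 3157, 2929 and 3126 in Par, and against Par was called lower in Int, at −1.23, and in no other derivative. In PC9 it had 1647 and 1643 in Lep, 3428, 3597 and 3414 in BrM, 2018 and 1979 in Int, and 1962, 2072 and 1923 in Par. Lep over BrM was −1.08, and −0.71 and uncalled after length correction. In MDA-MB-231 it had 4034 and 4441 in Int and 1936, 2428 and 1805 in Par, and rose by 1.05 ± 0.26 (adjusted p = 0.041), a call that was lost without any of Int 1, Int 2, Par 2 or Par 3 and after length correction, at 0.66. COL15A1, its relative, rose in PC9 BrM, at 222, 261 and 255 against 67.5, 76.9 and 58.1 in Par, by 1.86 ± 0.15 (adjusted p = 9.5e-07).

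The transmembrane collagens COL13A1 and COL23A1 rose in HCC1954 Lep. COL23A1 had 326, 322 and 246 normalized counts in Lep, 172 and 159 in BrM, 92.7 and 81.3 in Int, and 34.0, 32.0 and 30.3 in Par, in that order without overlap. Relative to Par, Lep changed by 3.17 ± 0.13 (limma adjusted p = 7.3e-11), BrM over Par was 2.33 and Int over Par was 1.41, which was 2.08 after quantile normalization. COL13A1 had 300, 303 and 254 in Lep and 126, 97.2 and 105 in Par, a rise of 1.38. In LLC Col23a1 had 0, 1.28 and 1.41 in Lep, 63.4, 48.0 and 70.8 in BrM, 207 and 40.5 in Int, and 76.1, 65.1 and 88.0 in Par. Its level in Lep changed by −5.45 ± 0.53 over Par (adjusted p = 1e-05), −5.11 over BrM and −5.72 over Int. At a pseudocount of 5 these were −3.79, −3.47 and −4.07, and the Int value was −4.56 without Int 1 and −6.88 without Int 2, all called.

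**Figure D5:**
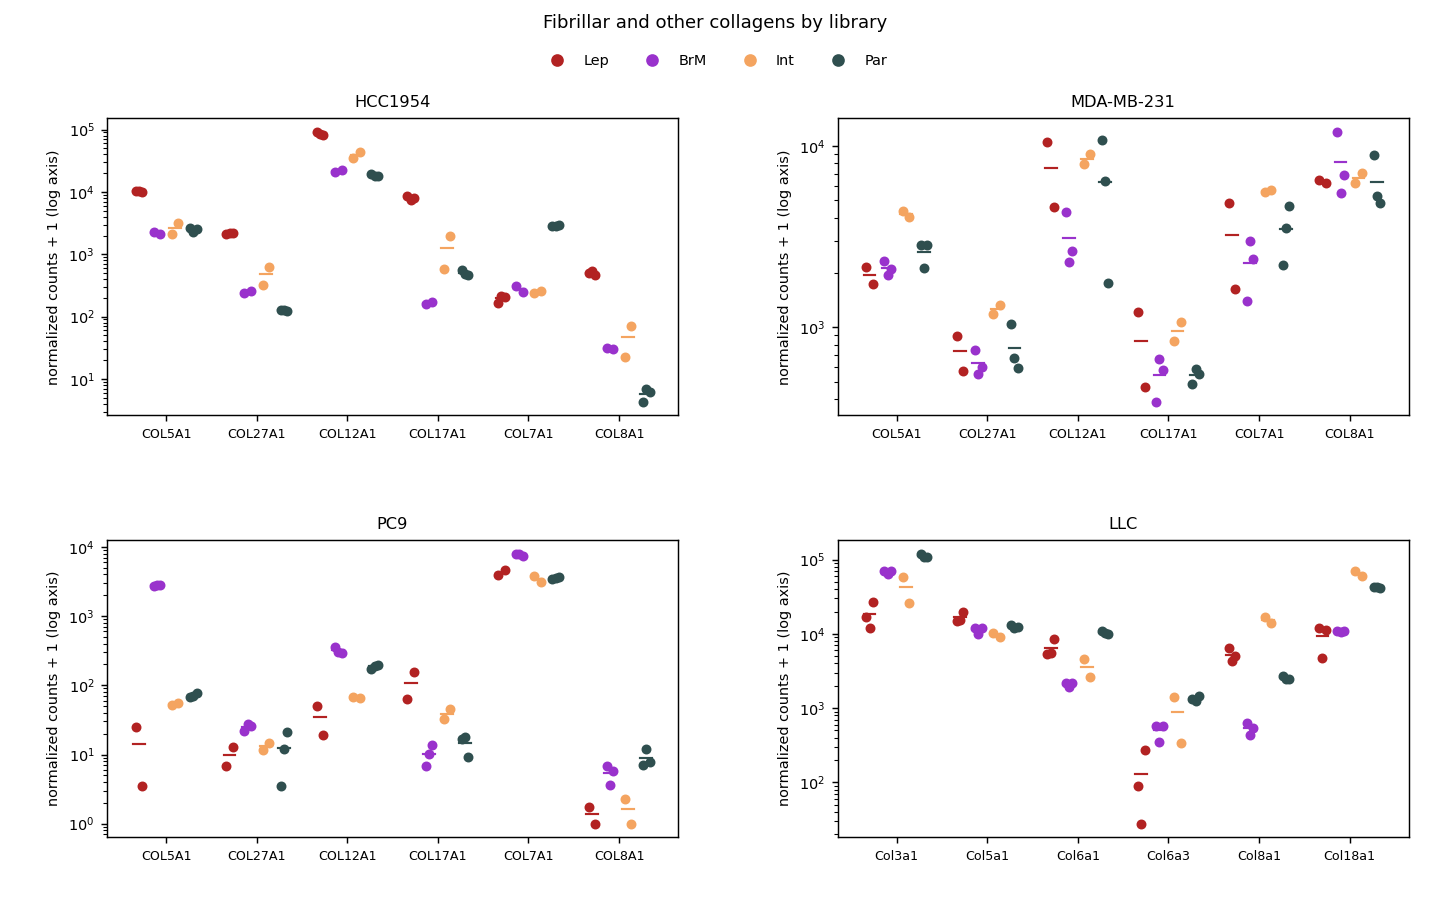
Normalized count + 1 in each library, on a log axis, of 6 collagen genes per model, with stages in the order Lep, BrM, Int, Par, dots for libraries and bars for means. In HCC1954 the Lep dots of COL27A1, COL17A1 and COL8A1 lie above all others, in PC9 COL5A1 is at 2710 to 2844 in BrM and 2.51 to 24.2 in Lep, and in LLC Col8a1 is highest in Int.

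The genes that make, link and break collagen were read from lists of modification, processing, crosslinking, receptor, partner and degradation genes. In HCC1954 Lep against Par, where limma called 26.8% of all genes, 13.0% higher and 13.8% lower, 2 of 6 crosslinking genes rose and 2 fell, 7 of 13 partners rose and 2 fell, and 6 of 11 degradation genes rose and 2 fell. LOX, which crosslinks collagen, averaged 1450 ± 10.4 normalized counts in Lep and 149 ± 10.5 in Par (SD, n = 3 each), a rise of 3.28 by limma (adjusted p = 1.2e-12). The collagenase MMP13 averaged 23335 ± 2152 in Lep and 1174 ± 239 in Par, a rise of 4.33. TIMP3, an inhibitor of matrix metalloproteases, averaged 643 ± 45.9 and 5573 ± 255 in those groups, a fall of 3.12. It was lower still in BrM, at 26.8 ± 12.3, and in Int, at 10.5 ± 2.94. Lep stood 4.61 above BrM and 5.83 above Int, both called. Of 17 modification genes 1 rose and 2 fell, among them FKBP10, a collagen chaperone, which averaged 24.2 ± 2.90 in Lep and 2227 ± 54.5 in Par. FKBP10 fell in the other derivatives too, to 9.62 ± 2.62 in BrM and 4.21 ± 2.99 in Int.

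In PC9 BrM, FN1, which encodes fibronectin, stood at 158659 ± 4402 normalized counts in BrM and 3799 ± 212 in Par (SD, n = 3 each), a rise of 5.38 by limma (adjusted p = 9.5e-09). LOXL2 and LOXL1, relatives of LOX, rose there by 1.44 and 2.25, and BMP1, which trims procollagen, by 1.25. TIMP3 went the other way and fell by 1.66, as it did in Lep by 1.49 and in Int by 1.97, all over Par. For BrM against Par limma called 7.72% of all genes, 4.62% higher and 3.10% lower. In PC9 Lep against Par, ITGB1 and ITGA2, which together form a collagen receptor, changed by −1.58 and −1.02. Limma called 15.1% of all genes there, 8.49% lower. ITGA2, close to the threshold, averaged 3855 ± 1643 in Lep (SD, n = 2) and 7481 ± 215 in Par (n = 3). ITGB1 and ITGA2 changed by −1.52 and −1.01 in PC9 Int against Par as well, where 13.9% of all genes were called, 7.71% lower. None of these changes is length-corrected.

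In LLC Lep against Par, 9 of 15 partner genes fell and none rose, where limma called 20.3% of all genes, 8.00% higher and 12.3% lower. Biglycan, Bgn, a small proteoglycan of fibrils, averaged 9.93 ± 8.08 normalized counts in Lep and 3508 ± 61.2 in Par (SD, n = 3 each), a fall of 8.58 by limma (adjusted p = 7.2e-08). Mrc2, the endocytic collagen receptor, averaged 79.6 ± 27.7 in Lep and 3144 ± 200 in Par, a fall of 5.34. Loxl3 fell by 2.94 and Loxl2 rose by 1.52, so crosslinking genes moved both ways. In MDA-MB-231 Int against Par, 4 of 6 crosslinking genes, 4 of 7 receptors and 6 of 12 partners rose and none of these fell, where limma called 6.94% of all genes, 4.33% higher and 2.61% lower. Among modification genes, GLT25D2, P4HA1 and PLOD2 rose by 2.11, 1.41 and 1.33, while FKBP10 fell by 3.25. These list results are without length correction. The correlation with length was 0.45 and 0.43 in the Int libraries of that comparison and 0.47, −0.35 and −0.45 in Par. Calls over all genes in that comparison numbered 10 without Int 1, 0 without Int 2, 3845 without Par 1, 132 without Par 2 and 408 without Par 3.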

How the data were processed

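Polyadenylated RNA (500 ng) was made into TruSeq RNA v2 libraries, which do not keep strand, and read as paired ends of 50 bases (75 for MDA-MB-231), per the labels' protocols. Tools named in the submitters' processing notes are HTSeq 0.5.4, FastQC 0.11.3 and DESeq2, and builds are GRCh37 (hg19) and GRCm38 (mm10). No source used here names the aligner. The deposited values are a signal, the authors' normalized counts per gene, 1 table per model, each normalized on its own. Low values in each library were whole multiples of 1 read's worth, within 0.01 of a read, so whole reads were recovered and gave the depths and shares. Values were taken as log2(value + 1) after keeping genes with at least 10 in at least 2 libraries. All libraries of a model entered 1 limma 3.58.1 fit with trend (R 4.3.3), and 5 comparisons per model were adjusted over all tested genes by Benjamini-Hochberg. The Par libraries serve 3 of those comparisons and the Lep libraries 3. The fits were also run on simulated counts, with the same spread set for all genes and libraries and no length trend. That run cannot show how the fits behave with uneven libraries or such a trend.

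The collagen genes, their classes and the pathway and marker lists were chosen with earlier results of these data known. Named genes were the 3 largest called changes of each class between Lep and Par, and the 2 largest elsewhere, where libraries did not overlap and the higher group averaged 100 or more. To these were added chains that assemble together, COL3A1, COL7A1, COL12A1, COL17A1 and COL18A1. COL13A1, COL16A1 and COL24A1 in HCC1954, COL4A3, COL4A4 in PC9 and COL9A2 in HCC1954 lay outside this rule and were chosen after their values were seen.

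Alternatives were a pseudocount of 5, no filter, edgeR 4.0.16 and DESeq2 1.42.0 on the recovered reads, replicate number as a block, a fit of the 2 compared groups only, quantile normalization, a correction for transcript length and leaving out each library. Transcript lengths and exon overlaps came from GENCODE 29 by gene name for 88.2% to 88.6% of tested human genes. Lengths were not used for LLC. Promoters are RefSeq sequences on GRCh38.p14. Tables and plots used Python 3.11.15, pandas 2.3.3, numpy 2.4.6, scipy 1.17.1 and matplotlib 3.10.9. Replicate numbers were taken to pair libraries where 3 pairs all had correlated deviations over 0.1, which held between MDA-MB-231 BrM and Par, at 0.50, 0.26 and 0.23, where the block changed no collagen call. Deviations were taken from group means, so these correlations are not independent. Replicate 1 also had the highest length correlation in both groups. It ran 0.47, −0.35 and −0.45 in Par and −0.09, −0.47 and −0.45 in BrM. The part of the length trend in the pairing was not tested.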

Additional observations from a re-analysis of the deposited data

Results flagged for a closer look

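Several collagen genes were called in opposite directions in different models under the same comparison, with no overlap between the libraries compared. The tables were normalized separately, so these differences between models were not tested. All values are log2 fold changes of the first stage over the second, from limma.

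For Lep over Par, COL12A1, the fibril-surface collagen, was 2.25 in HCC1954 and 3.15 in LLC but −2.58 in PC9.

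For BrM over Par, COL4A2 was −3.97 in HCC1954 and 1.15 in PC9. The type VI chain COL6A1 was 1.40 in PC9 and −2.32 in LLC, and COL6A2 was 1.69 in PC9 but −1.58 in HCC1954 and −2.79 in LLC. COL7A1, the anchoring fibril collagen, was −3.36 in HCC1954 but 1.13 in PC9 and 2.04 in LLC.

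For Int over Par, COL4A2 was 1.02 in MDA-MB-231 but −6.05 in HCC1954, and COL4A5 was 1.92 in MDA-MB-231 but −1.52 in HCC1954 and −2.80 in LLC. COL6A2 was 1.15 in PC9 but −4.12 in HCC1954 and −1.95 in LLC. COL12A1 was 1.10 in HCC1954 and −1.47 in PC9, and COL18A1 was −1.23 in HCC1954 and 1.05 in MDA-MB-231. The 3 MDA-MB-231 calls, COL4A2, COL4A5 and COL18A1, were each lost without Par 2 and without Par 3. Length correction ended those of COL4A2 and COL18A1, and that of PC9 COL12A1, at −0.84. Without Int 2, COL12A1 was 0.93 in HCC1954 and Col4a5 was −2.09 in LLC.

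For Lep over Int, COL8A1 was 3.64 in HCC1954 and −1.58 in LLC, COL18A1 was 1.17 and −2.89, and COL23A1 was 1.76 and −5.72, in the same order of models.

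For Lep over BrM, COL4A1 was 2.36 in HCC1954 and −1.21 in PC9, COL5A1 was 2.22 and −8.21, and COL12A1 was 2.02 and −3.34, in the same order of models. COL6A1 was −1.15 in PC9 and 1.61 in LLC. In PC9 the COL4A1 call was lost after length correction, at −0.84, and COL6A1 was −0.98 without Lep 1.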

How the results depend on the processing

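No called collagen result changed direction under any alternative run, and all total counts of collagen calls in HCC1954 stayed within 1.5 times, though its counts by direction did not. In MDA-MB-231, DESeq2 called 2 collagens for Lep against Par, 1 for BrM against Par, 5 for Lep against Int and 3 for Lep against BrM, where limma called none. DESeq2 called 1.81%, 3.12%, 3.11% and 4.90% of all genes there, in the same order. MDA-MB-231 Int against Par, with 6 calls, gave 3 without the filter, 2 with the replicate block and 0 with those 2 groups only. Of all genes 3.70%, 5.33% and 2.36% were called in those settings, in the same order. PC9 Lep against Par, with 10 calls, gave 16 without the filter, where 13.8% of all genes were called. PC9 Lep against Int, with 1 call, gave 0 without the filter, with the replicate block or with those 2 groups only, and 2 by edgeR and by DESeq2. LLC Lep against Int, with 9 calls, gave 14 without the filter. In this comparison and in PC9 Lep against Par, no collagen that had passed the filter lost or gained a call without it. The added calls there were of collagens that had not passed the filter. The cause of the other shifts was not tested.

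Leaving out 1 library gave these ranges for Lep against Par, BrM against Par, Int against Par, Lep against Int and Lep against BrM in turn: 19 to 19, 16 to 17, 15 to 20, 16 to 21 and 10 to 12 calls in HCC1954, then 0 to 1, 0 to 1, 0 to 7, 0 to 3 and 0 to 2 in MDA-MB-231, then 6 to 11, 8 to 10, 8 to 9, 0 to 3 and 13 to 14 in PC9, and 11 to 15, 14 to 15, 9 to 12, 9 to 13 and 7 to 11 in LLC.

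Of single named results, the replicate block left 308 on the same side of the threshold within the spread, moved 7, ended 5 calls and made 2. Outside MDA-MB-231 BrM and Par the replicate numbers were not taken to pair libraries. Correlations of same-numbered libraries ran from −0.06 to 0.03 in HCC1954, −0.03 to 0.1 in PC9 and −0.11 to 0.14 in LLC. In the other MDA-MB-231 pairs they ran from −0.09 to 0.37, the highest between Lep 1 and Par 1, where Lep 2 and Par 2 gave −0.02. LLC Int and BrM gave 0.11 and 0.13, with 2 pairs. Length correction left 215 of the human results the same, moved 16 and ended 6 calls, and was not run for LLC. Genes under about 10 normalized counts rest on few reads.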
